A study of Mus musculus with 2 samples.

Results

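Glycolysis splits glucose into pyruvate, and most of its steps can be catalysed by more than 1 isoenzyme, each from its own gene. Pyruvate is then reduced to lactate or admitted to the mitochondrial citrate cycle by pyruvate dehydrogenase, which the PDK kinases inhibit. HIF-1, whose oxygen-regulated subunit is encoded by Hif1a, raises transcription of many of these genes when oxygen is low. In the retina, the retinal pigment epithelium (RPE) passes glucose from the blood to the photoreceptors and takes up the lactate that they release.

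The values described here are those of 36 genes for glucose uptake, glycolysis, lactate formation, pyruvate oxidation and oxygen sensing. The genes were chosen by symbol, and 76 of the 45101 probe sets on each array were annotated to 33 of them, out of 19324 genes named on the arrays. Gpi1, Pfkfb1 and Eno1 matched no probe set in the annotation used here and have no value. Of the 76 probe sets, 69 named a single member, 4 named several genes and 3 were control probe sets for Gapdh. These 69 gave a value for 32 genes, and in all 32 either array was above the floor described next. A gene took the value of its brightest probe set, and signals under 20.4, the median over both arrays (the floor), were set to it before log2 ratios were taken.

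The samples were 2 primary cultures of mouse RPE, each measured on 1 array. Both were grown for 14 days in DMEM with 20% fetal bovine serum, kept overnight without serum before RNA was taken, and described as 95% cytokeratin positive. The untreated RPE received no cytokine, and the RPE with IFNg received 100 U/ml of interferon gamma, a cytokine of activated lymphocytes, over 24 h. The labels give no mouse strain or age and do not say how the serum-free night overlapped with the cytokine.

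With 1 array per group there is no replicate, no p-value and no error between cultures, and precision is limited by the array number. Higher and lower describe these 2 arrays only. The available spread is between probe sets on the same 2 arrays, and it holds no error between arrays or cultures. Between probe sets that share a gene, the log2 ratio had an SD of 0.44 (4419 genes), and of 0.32 for 17 members. The median signal was 20.1 on the untreated array and 20.8 on the IFNg array. All 7 measured genes of the interferon response check were 2-fold or more higher with IFNg, and Irf1, for example, had signals of 319 and 3391. Of the RPE markers, Otx2 (411 and 388.5) and the keratin gene Krt8 (453.5 and 459.9) were above the floor, whereas the visual cycle gene Rpe65 (5 and 1.1) and Best1 (4.5 and 9.2) were under it on both arrays. Of 11 measured RPE markers 3 were 2-fold lower with IFNg and none 2-fold higher, with a median log2 ratio of -0.32. Over all genes with either array above the floor, 4.48% were 2-fold lower and 8.82% 2-fold higher. The carrier Ttr had signals of 89.4 and 29.4 (-1.60), the melanosomal Tyrp1 53.1 and 21.7 (-1.29) and the retinal-binding Rlbp1 73.2 and 35.1 (-1.06). These 3 genes were dim. Further Tyrp1 probe sets were at least 1.45 lower and, at 17.7 and 25.7, at least 0.33 higher on the log2 scale. Of the 11 markers, 4 had ratios above 0. Ezr, for an apical linker protein, was at -0.99, while the keratin gene Krt18 was at 0.81 and Mitf at 0.59. The part of these markers in the members' values was not tested. Fibroblast and mesenchymal markers were above the floor in 8 of 8 genes, with summed signals of 57101 and 52110, and none passed 2-fold (Col1a1 at 11026 and 9775). Of 6 endothelial and pericyte markers, Cspg4 was 2.35-fold lower, with a second probe set at -0.30, and Pecam1 had 28.7 and 20.8. Rgs5, the brightest of them, went the other way (967 and 1290.5, 0.42), while 5 had ratios below 0. Through Rgs5 their summed signals were 1236 and 1434. Of 9 measured housekeeping genes, B2m, itself an interferon target, was 2.45-fold higher, and the others were within 2-fold. The 3 erythroid markers with a probe set were under the floor on both arrays. In RNA from a whole culture, fewer cells of a type and less RNA per cell cannot be told apart.

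The promoters of 5 members are shown for the hypoxia response core, the letters ACGTG or GCGTG, which HIF-1 binds. They belong to Hif1a, Pdk1 and Pgk1, whose probe sets were all higher with IFNg, and to Ldha and Ldhb, which code for the subunits of lactate dehydrogenase. These genes were picked after their values were seen. Each line gives the 250 bases before the start of transcription from RefSeq on GRCm38.p6, 5′ to 3′ on the gene's strand, with the core in capitals on either strand.
Hif1a: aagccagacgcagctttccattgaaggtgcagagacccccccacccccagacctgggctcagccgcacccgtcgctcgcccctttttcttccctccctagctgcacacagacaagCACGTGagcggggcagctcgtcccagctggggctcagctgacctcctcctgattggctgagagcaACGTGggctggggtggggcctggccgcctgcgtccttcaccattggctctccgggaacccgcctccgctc
Pdk1: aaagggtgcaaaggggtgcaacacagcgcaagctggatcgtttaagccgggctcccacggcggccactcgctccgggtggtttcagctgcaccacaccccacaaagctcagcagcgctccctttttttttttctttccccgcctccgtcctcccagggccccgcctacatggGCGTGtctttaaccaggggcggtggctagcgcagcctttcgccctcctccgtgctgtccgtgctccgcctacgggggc
Pgk1: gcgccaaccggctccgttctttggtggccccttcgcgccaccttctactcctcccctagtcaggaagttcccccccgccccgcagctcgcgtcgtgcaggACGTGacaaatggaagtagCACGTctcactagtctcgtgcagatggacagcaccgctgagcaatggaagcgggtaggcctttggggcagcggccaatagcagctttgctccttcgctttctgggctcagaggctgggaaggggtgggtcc
Ldha: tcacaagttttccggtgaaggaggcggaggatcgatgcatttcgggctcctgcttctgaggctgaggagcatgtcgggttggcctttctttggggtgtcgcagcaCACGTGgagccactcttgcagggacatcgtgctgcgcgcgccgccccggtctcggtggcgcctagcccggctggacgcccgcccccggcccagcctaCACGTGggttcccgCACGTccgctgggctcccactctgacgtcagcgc
Ldhb: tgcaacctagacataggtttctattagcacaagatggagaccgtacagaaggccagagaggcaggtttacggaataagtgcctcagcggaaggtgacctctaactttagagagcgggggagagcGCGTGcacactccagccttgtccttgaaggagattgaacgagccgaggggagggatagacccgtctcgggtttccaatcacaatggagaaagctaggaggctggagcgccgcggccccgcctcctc
The stretches lie at chr12:73907617-73907866 (plus strand), chr2:71872974-71873223 (plus), chrX:106186850-106187099 (plus), chr7:46845554-46845803 (plus) and chr6:142507958-142508207 (minus). The Ldha stretch holds 3 runs of the core, those of Hif1a and Pgk1 hold 2 each, and those of Pdk1 and Ldhb hold 1 each. Ldha and Pdk1 each have a further annotated start, and the stretch with more matches is printed.

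The core stood in such a stretch of 31 of 35 members with a RefSeq entry (88.6%), against 60.0% of 10254 genes above the floor on the arrays. By stretch, the core stood in 41 of 54 for the members (75.9%) and in 54.0% of 13141 for the measured genes. Among all 32851 promoters of this length, 38.6% held it. Gpi1, Tpi1, Pgam2 and Eno2 had no match. The count of CG pairs, which the core contains, had a median of 14 in the members and 17 in genes above the floor, for the highest stretch of each gene. Its part in the shares of the core was not tested. The E-box CACGTG, which overlaps the core, stood in 6 of 35 members and in 9.65% of measured genes. The interferon gamma-activated sequence TTCNNNGAA stood in 2 of 35 members (Pfkm and Aldoc), against 6.99% of measured genes. The core of the interferon-stimulated response element (ISRE) stood in 0 of 35, against 3.05%. Of 6 genes of the interferon response check with such a stretch, only 2 held the ISRE core and 1 the activated sequence. The part of these letters in the members' values was not tested. Both strands were searched for each, and a match is a description of letters.

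No member was 2-fold higher or 2-fold lower with IFNg by its brightest probe set. Over all 12743 genes with either array above the floor (the measured genes), 8.82% were 2-fold higher and 4.48% 2-fold lower. Among the 6561 genes with a mean signal of 100 or more, a limit chosen after the values were seen, the shares were 8.89% and 2.82%, and 0 of 25 members of that brightness passed 2-fold. Of the 32 members, 12 had a log2 ratio above 0 and 20 below it (62.5%), beside 57.5% below 0 over all measured genes. The median was -0.10, beside -0.12 over all measured genes, and the members' quartiles lay at -0.27 and 0.22, beside -0.48 and 0.37. The median size of the log2 ratio, sign aside, was 0.27 in the members and 0.44 in all measured genes. At 1.5-fold, Pfkfb2 and Pfkp were higher and Ldhb and Pdk2 lower, while 17.9% of all measured genes passed upward and 18.7% downward. With array scaling to a common 75th percentile or by quantiles, Pdk2 passed 2-fold lower, and without probe sets whose IDs mark shared sequence, Hif1a passed 2-fold higher.

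**Figure D1:**
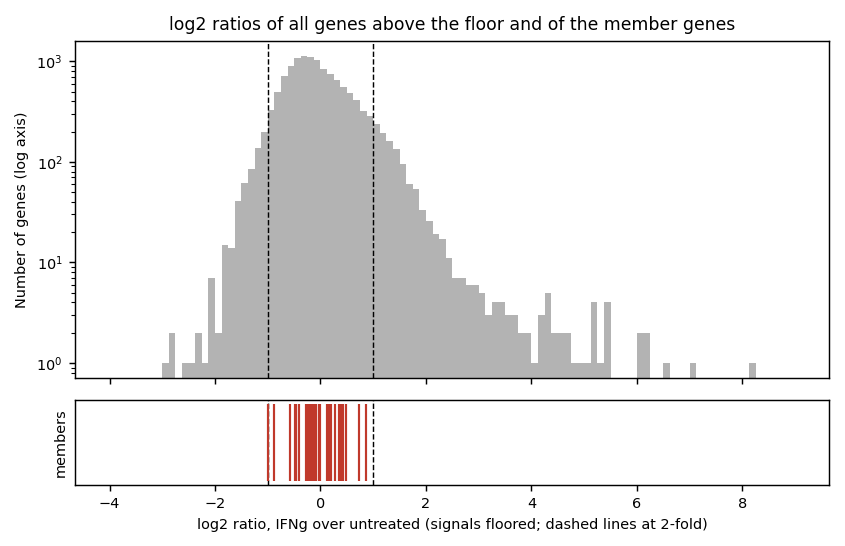
The upper panel counts all 12743 measured genes (log axis) by log2 ratio of IFNg over untreated signal, and the lower panel marks the 32 members by red lines on the same axis. The members lie between -0.99 and 0.87, inside the dashed 2-fold lines, while the distribution of all genes extends past 8 on the side higher with IFNg.

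The glucose carriers were close on the 2 arrays. Slc2a1, the main glucose carrier of RPE and many other cells, had signals of 4689 in untreated RPE and 3904 with IFNg, a log2 ratio of -0.26. Its further probe sets gave -0.14 and -0.47, so all 3 were lower with IFNg. Slc2a3, a high-affinity carrier typical of neurons, had signals of 98.4 and 92 (log2 ratio -0.10), while another probe set gave 0.41 and a further 2 were under the floor on both arrays.

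Hexokinases trap glucose in the cell as glucose 6-phosphate. Hk1, the form expressed in most tissues, had signals of 901 and 848.9 (log2 ratio -0.09). That sign turned under other array scaling, and a second probe set was at 0.23. Hk2, an inducible form that HIF-1 can activate, had signals of 920.1 and 1110 (log2 ratio 0.27). Hk3, expressed mainly in myeloid cells, was dim at 31 and 35.6 (log2 ratio 0.20), and its other probe set, at 5.8 and 35, was at least 1.72-fold higher. Macrophage and dendritic cell markers were measured beside it: 9 of 10 measured markers had log2 ratios below 0, 3 of them past 2-fold. Over all measured genes, 57.5% had a ratio below 0 and 4.48% were 2-fold lower. The markers past 2-fold were Laptm5 (40.9 and 8.7) and Fcer1g (46 and 10.6), both at the floor with IFNg, and Csf1r (203 and 77.5). Other measured probe sets were within 2-fold, at -0.56 and -0.28 for Csf1r and at -0.19 and -0.55 for Laptm5. Ptprc had 20.8 and 7, Itgam and Aif1 were under the floor on both arrays, and the summed signals of 12 markers were 1363 and 873. Their part in the Hk3 values was not tested.

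Phosphofructokinase commits sugar to glycolysis, and its 3 subunit genes differed in their ratios. Pfkp, the platelet-type subunit, had signals of 582 and 964 and was 1.66-fold higher with IFNg, with a second probe set at a log2 ratio of 0.28. Pfkl, the liver-type subunit, had signals of 2524 and 2086 (log2 ratio -0.28), with other probe sets at -0.40 and, for a dim one, 0.09. Pfkm, the muscle-type subunit, had signals of 289 and 207 (log2 ratio -0.48) on its single probe set. The log2 ratio of Pfkp exceeded that of Pfkl by 1.00 and that of Pfkm by 1.21, or 2.27 and 2.73 times the SD between probe sets of a gene. That SD is of a single ratio, and a difference between ratios spreads more widely, so such multiples are no test. Every pair described here is given as the higher ratio over the lower. The measured probe sets of Pfkp did not overlap in ratio with those of Pfkl or Pfkm. With log2 values averaged over all probe sets of a gene, the ratios were closer, at 0.34 for Pfkp, -0.20 for Pfkl and -0.48 for Pfkm. Besides the pairs described below, other pairs had multiples from 0.38 (Egln3 over Egln1) to 2.57 (Pdk3 over Pdk2). Between these lay Hk2 over Hk1 (0.80), Aldoc over Aldoa, and Pdha1 over Pdhb (1.89). Probe sets overlapped in ratio for Egln3 with Egln1 and for Pdha1 with Pdhb.

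Aldolases and triose phosphate isomerase carry out the cleavage of the hexose and the interchange of the resulting trioses. Aldoa, the general form, had signals of 8276 and 7526 (log2 ratio -0.14), and all 5 of its probe sets were lower with IFNg, from -0.38 to -0.06. Aldoc, the form of brain and also a hypoxia target, had signals of 609 and 800 (log2 ratio 0.39), and its other probe set was under the floor on both arrays. Tpi1, the isomerase, had signals of 6945 and 6238 (log2 ratio -0.16), with all 3 probe sets between -0.21 and -0.08.

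The PFKFB enzymes set the level of fructose 2,6-bisphosphate, an activator of phosphofructokinase. Pfkfb2, known from heart, was dim at 55.3 and 100.9 and had the highest ratio of the 32 members (1.82-fold). Its other probe sets were near the floor and differed in direction, at 0.05, at least 0.59 higher and at least 0.23 lower on the log2 scale. With the floor raised to the pooled 75th percentile its log2 ratio was 0.22. Pfkfb3, the inducible form with strong kinase activity, had signals of 583.5 and 572 (log2 ratio -0.03, with a sign that turned under another scaling), while its second probe set was at -0.58. Pfkfb4 was dim at 57 and 49.3 (log2 ratio -0.21).

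**Figure D2:**
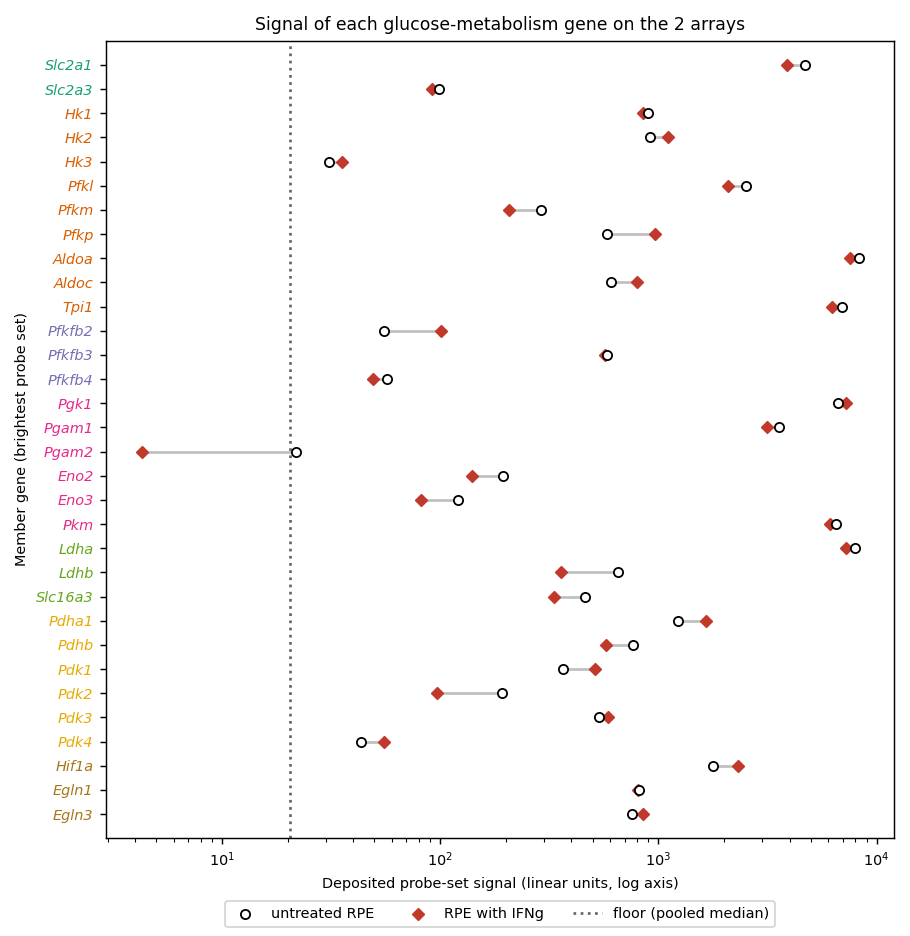
Each row is a member gene and shows the deposited signal of its brightest probe set (log axis) in untreated RPE (open circle) and RPE with IFNg (red diamond), with the floor of 20.4 as a dotted line and gene names coloured by pathway step. The symbols of most genes lie close together, and the pairs farthest apart above the floor are those of Pdk2, Ldhb, Pfkfb2 and Pfkp.

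Gapdh, which oxidises glyceraldehyde 3-phosphate and often serves as a reference transcript, had no probe set of its own outside the array's controls. The control probe sets gave 10457 and 11182 at the 3′ end (log2 ratio 0.10), 11205 and 10683 in the middle (-0.07) and 11517 and 10899 at the 5′ end (-0.08). The brightest of the probe sets shared with Gapdh-like genes gave 12678 and 12509 (-0.02), and the dimmer ones gave -0.55 and -0.14. The bright Gapdh probe sets thus differed by no more than 0.10 in log2 ratio at any position. The corresponding Actb controls, for an actin used as a further reference, were at -0.09 (3′), -0.22 (middle) and -0.25 (5′).

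Pgk1, which makes the first ATP of glycolysis and is a known HIF-1 target, had signals of 6650 and 7273 (log2 ratio 0.13). Its further probe sets were also higher, with signals of 3807 and 4502 (0.24) and of 1221 and 2222 (0.86). Pgam1, the general phosphoglycerate mutase, had signals of 3581 and 3165 (-0.18), and the muscle form Pgam2 was at 21.9 and 4.3, at least 1.07-fold lower. With the floor lowered to the pooled 25th percentile the Pgam2 log2 ratio was -1.92, between signals near or under the floor used elsewhere. The enolase genes Eno2 (neuronal form), with signals of 193.5 and 140.1, and Eno3 (muscle form), with 120.6 and 81.3, had log2 ratios of -0.47 and -0.57. Pkm, for the pyruvate kinase of most tissues, had signals of 6551 and 6144 (-0.09, with a sign that turned under another scaling). Skeletal muscle markers, measured beside the muscle forms, had summed signals of 515 and 370 with Myod1, Myh4 and Tnnt3 under the floor on both arrays. Most of that sum was Myh2, at 356 and 229 (-0.63), and Acta1 was at 88.8 and 44.7 (-0.99). Myh1, Ckm and Mylpf had ratios above 0, so the median of the 5 measured markers was 0.04. Myh1 (9.4 and 25.1) and Ckm (12.5 and 25.2) were under the floor in untreated RPE, so their ratios are bounds. Of 9 photoreceptor and neuron markers 6 were under the floor on both arrays, and Tubb3, a neuronal tubulin, was at least 7.63-fold higher (15 and 155.7). The part of these markers in the values of Eno2, Eno3, Pgam2 and Pfkm was not tested.

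The 3 genes for lactate formation and export had log2 ratios below 0, all within 2-fold. Ldhb, for the subunit that favours lactate oxidation, had signals of 654 and 357, and was 1.83-fold lower. Its other 3 probe sets had untreated signals of 475, 551 and 531 and IFNg signals of 359, 361 and 311, so all 4 were lower, by 0.40 to 0.87 on the log2 scale. Ldha, for the subunit that favours lactate formation, had signals of 7998 and 7269 (log2 ratio -0.14) on 1 probe set. The difference between these subunits, 0.74 in log2 ratio, was 1.66 times the SD between probe sets of a gene. That SD is of a single ratio and is too narrow for a difference. Slc16a3, the lactate exporter MCT4 and a HIF-1 target, had signals of 463 and 334 (-0.47). Among related carriers, Slc16a1 (MCT1) had signals of 624.5 and 837 (0.42), and Slc16a8, the MCT3 of the basal RPE membrane, was dim at 35 and 3.7 (at least 1.72-fold lower).

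The 4 PDK genes, whose kinases close pyruvate dehydrogenase by phosphorylation, went in different directions. Pdk1, a HIF-1 target, had signals of 367 and 513 and was 1.40-fold higher with IFNg. Its other probe sets had signals of 125.6 and 204 (log2 ratio 0.70), 279 and 322.5 (0.21), and 8.1 and 42.1 (at least 1.04), so that all 4 were higher. Pdk2, the widely expressed kinase, had signals of 191.5 and 96.4 on its single probe set and was 1.99-fold lower, the lowest log2 ratio of the 32 members (-0.99). Pdk3 had signals of 533 and 589.9 (0.15), and Pdk4, a kinase gene induced by fasting, was dim at 43.3 and 55.3 (0.35). Pdk1 exceeded Pdk2 by 1.47 in log2 ratio, or 3.33 times the SD between probe sets of a gene. As above, that SD is of a single ratio and is too narrow for a difference. Pdk2, as the lowest member, also widens the difference in any pair with it. The enzyme's own subunit genes gave no clear direction: Pdha1 had 1234 and 1662 (0.43) but -0.43 on its second probe set, with 973 and 720.3, and Pdhb had 767 and 578 (-0.41) and -0.25 on a dim one.

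Hif1a was higher with IFNg on all 4 of its probe sets, to unequal extents. The brightest had signals of 1784 and 2321 (log2 ratio 0.38), and a dimmer one, 239 and 312.5, gave nearly the same ratio (0.39). Another had signals of 168 and 422 and was 2.51-fold higher, and the last was dim at 1.2 and 23.5. Egln1, the main prolyl hydroxylase that marks HIF-1 alpha for destruction, had signals of 813 and 806 (-0.01, with a sign that turned under another scaling), while its second probe set went from 896 to 529.7 (-0.76). Egln3, a hydroxylase gene that HIF-1 itself activates, had signals of 761 and 849 (0.16), with -0.27 on its second probe set.

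**Figure D3:**
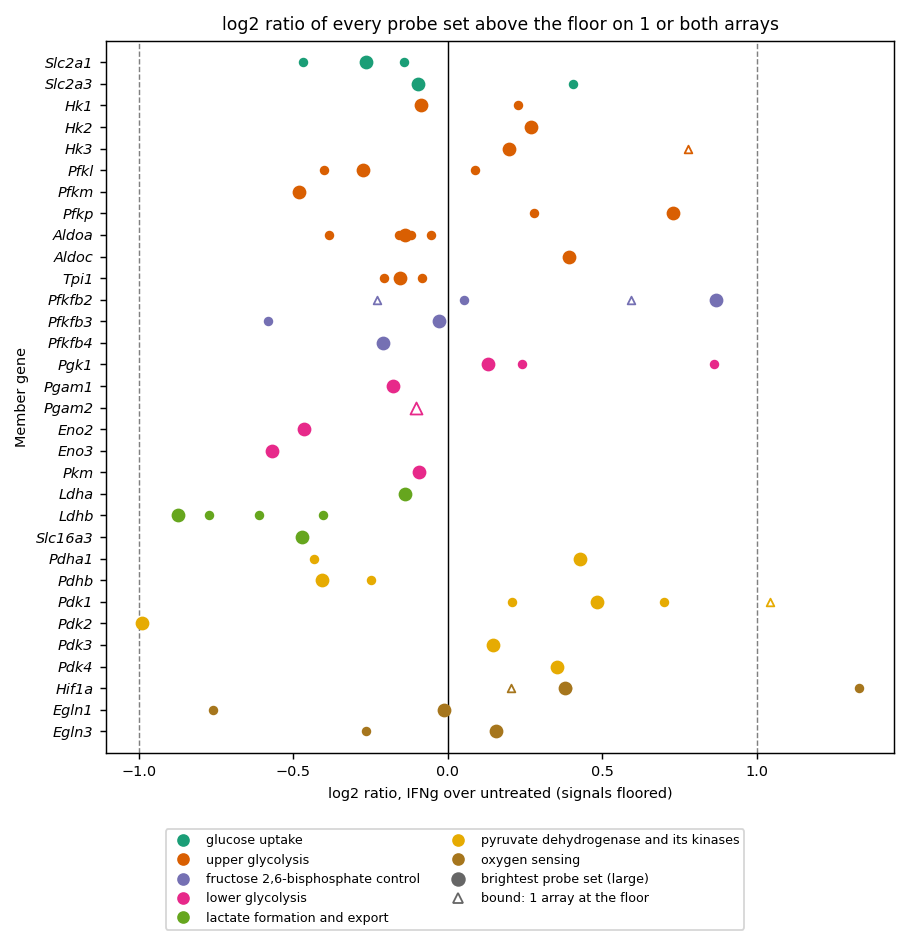
Each point is a probe set naming the gene alone, placed by its log2 ratio of IFNg over untreated signal and coloured by step, with the brightest probe set of each gene drawn large and bounds as open triangles. Hif1a and Pdk1 have all 4 points right of 0 and Ldhb all 4 left of it, while Pdha1, Egln3, Hk1 and Slc2a3 have points on both sides.

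Of 18 members with 2 or more measured probe sets, 5 had all of them higher with IFNg (Hk3, Pfkp, Pgk1, Pdk1 and Hif1a) and 7 had all of them lower (Slc2a1, Aldoa, Tpi1, Pfkfb3, Ldhb, Pdhb and Egln1). The remaining 6 were mixed. A single direction was thus seen in 66.7% of these members, and in 61.6% of the 5707 genes with 2 or more measured probe sets.

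Other genes of glucose metabolism were mostly within 2-fold as well. The counts below stand beside shares of 8.82% higher and 4.48% lower over all measured genes. Of 10 measured glucose and lactate carriers, 2 were 2-fold lower and none 2-fold higher: Slc2a4, the insulin-responsive carrier, at 56.9 and 18 (at least 2.79-fold), and Slc2a8 at 269 and 124 (2.17-fold). Slc2a10 and Slc2a6 followed, at log2 ratios of -0.87 and 0.86. None of the 10 measured genes in the rest of glycolysis and gluconeogenesis passed 2-fold. There Bpgm, which makes 2,3-bisphosphoglycerate, came closest, with 459 and 241 (1.90-fold lower) and further probe sets 1.96-fold and 2.42-fold lower. G6pc3 was at -0.73, Hkdc1 at 0.69 and Gpd2 at 0.37. In the pentose phosphate and hexosamine branches, 1 of 14 was higher and 1 lower: Ogt, which attaches GlcNAc to proteins, at 138 and 319 (2.32-fold), and Tigar, a fructose bisphosphatase that lowers glycolysis, at 91.7 and 36.2 (2.53-fold lower). All 5 probe sets of Ogt were higher. Gfpt1 and Oga, which act before and after Ogt on the same sugar, were at 1.00 and 0.98, just inside 2-fold. Their other measured probe sets gave lower ratios and reached below 0. They ran from at least 0.62 to -0.08 for Gfpt1 and from 0.63 to -0.07 for Oga. Of 12 measured glycogen genes, Phkb, a subunit of phosphorylase kinase, was 3.25-fold higher (58 and 188.6) and none was 2-fold lower. Pygm was at -0.98, Ugp2 at 0.66 and Gyg at -0.63.

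The rest of the pyruvate dehydrogenase complex and the citrate cycle had a median log2 ratio of -0.46 over 24 genes. The median was -0.12 over all measured genes and -0.16 over those with a mean signal of 100 or more. Of the 24 genes, 16 had ratios below 0, beside 57.5% of all measured genes. Sdhd, a subunit of succinate dehydrogenase, had signals of 811.5 and 439 (-0.89), Idh3g, of isocitrate dehydrogenase, 983 and 544 (-0.85), and Sucla2, of succinyl-CoA ligase, 317 and 586 (0.88). Cs, the citrate synthase, had signals of 1660.5 and 962 (-0.79), and Mdh2, the mitochondrial malate dehydrogenase, 3645 and 2148 (-0.76). The gene past 2-fold was Pdp1, for the phosphatase that reopens pyruvate dehydrogenase, with 54.9 and 153 (2.79-fold higher) and a second probe set at least 4.98-fold higher.

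Of 26 measured genes of the wider hypoxia pathway, 3 were 2-fold higher with IFNg and 1 was 2-fold lower, with a median of 0.07. The shares over all measured genes were 8.82% and 4.48%, so these counts are near those of any list. Kdm3a, a histone demethylase, had signals of 129 and 380.0 (2.95-fold higher). Ero1a, an oxidase of protein folding, had 892 and 2114 (2.37-fold), and its other probe sets were 1.89-fold and 2.02-fold higher. Plod2, a collagen lysyl hydroxylase, had 767 and 1548 (2.02-fold), with a second probe set at a log2 ratio of 0.47. Car12, a carbonic anhydrase, was dim at 47.6 and 23.1 (2.06-fold lower). Other widely used hypoxia targets were within 2-fold, among them Vegfa, an angiogenic factor, at 287 and 301 (0.07), and Car9, a further carbonic anhydrase, at 129.5 and 149 (0.20). Some moved further, with Ndrg1 at 0.59 and Bnip3 at 0.45, and Bhlhe40 at -0.66 and Ddit4 at -0.43. In the whole list, 14 ratios were above 0 and 12 below it. Epas1, for the related subunit HIF-2 alpha, had 1088 and 620 (-0.81). Of 15 measured regulators of glycolytic genes none passed 2-fold by its brightest probe set. The glucose-responsive arrestin gene Arrdc4 had 120.0 and 225.9 (0.91), and its second probe set, at 67.4 and 175.8, was 2.61-fold higher. The related Txnip had 891 and 1451 (0.70), while Prkaa2 was at 0.87 and Akt1 at -0.45.

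**Figure D4:**
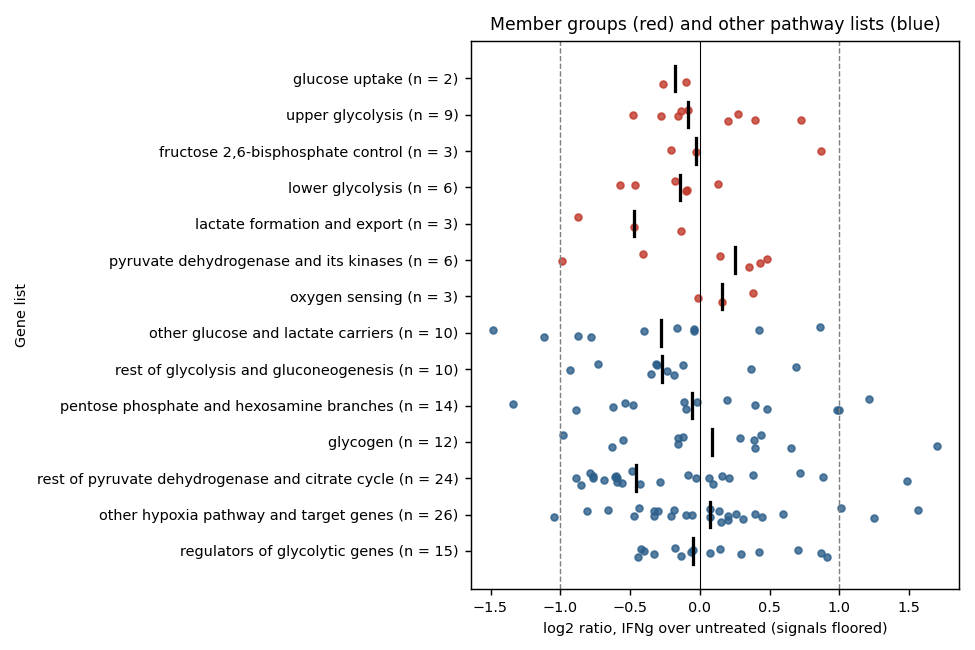
Points are genes placed by log2 ratio of IFNg over untreated signal, grouped by step for the members (red) and by list for other genes (blue), with vertical jitter, black bars at the medians and dashed lines at 2-fold. The members all lie inside the 2-fold lines, and the bar farthest left of 0 among the larger lists is that of the citrate cycle (-0.46).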

How the data were processed

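Total RNA from 2 cultures was amplified, labelled with biotin and hybridised, per the labels' protocols. The deposited values are linear signal intensities, 1 per probe set, from 0.1 to 14896. Not given in the sources used here are the summarisation software, the background correction and detection calls; a floor served instead of the latter. The 64 control probe sets were left out, each array was scaled to a common mean after trimming 2% at each end (99.55 and 99.57 before scaling), and signals below the median of both arrays were raised to that value before log2 was taken. By this rule, 49.5% and 50.4% of probe sets counted as measured. Ratios with 1 array at the floor are bounds.

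Genes were named from the platform annotation, which can be old, and only by the 34945 probe sets with 1 gene (932 have several and 9160 none). All 36 members are named. From each other pathway list, up to 4 genes with the largest ratio were named, and from marker lists the first gene listed, where it has a value, and any past 2-fold. Further genes of these lists were named after their values were seen. Members and lists were chosen with earlier results of these data known. RefSeq tables are of assembly GRCm38.p6. Alternatives covered scaling, floor, pseudocount, probe-set rule and threshold. The procedure was tested on simulated data. Analyses used Python 3.11.15, numpy 2.4.6, pandas 2.3.3, statsmodels 0.14.6 and matplotlib 3.10.9.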

Additional observations from a re-analysis of the deposited data

How the results depend on the processing

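The count of members 2-fold lower was 0 as reported and 1 with a common 75th percentile (Pdk2), 1 with quantile normalization (Pdk2) and 1 with the floor lowered to the pooled 25th percentile (Pgam2). The count 2-fold higher was 0 and became 1 without probe sets whose IDs mark shared sequence (Hif1a, which then takes the probe set at 1.33). At 1.5-fold the counts were 2 higher and 2 lower, and at 3-fold 0 and 0. The median log2 ratio of the members lay between -0.17 and -0.01 over the scalings and was 0.09 over the 23 members left without shared-sequence probe sets. Over 9 alternatives, 270 of 275 recomputed member values moved by less than 0.44, and the other 5 were values of Pgam2, Pfkfb2 and Hif1a. The sign of Egln1, Hk1, Pfkfb3 and Pkm changed under other scalings, while 28 members kept theirs over the scalings. Under other probe-set rules, the sign also changed for Egln3, Pdha1, Pfkl and Slc2a3. No paired analysis was possible because each group has 1 array. Leaving out a replicate was not possible for the same reason. How much background a dim signal holds is not known, which limits Hk3, Pfkfb2, Pfkfb4, Pgam2 and Pdk4 in particular.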
